A study of Mus musculus with 24 samples.

Results

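Adipose tissue dendritic cells (ATDC) and adipose tissue macrophages without CD11c (CD11c- ATM) sorted from the gonadal fat of lean mice were compared, both from mice on a normal diet (ND). The 4 arrays were taken from the 24 of the series by the group in their titles: 2 of ND ATDC and 2 of ND CD11c- ATM. All mice were male C57Bl/6, and live cells were sorted by flow cytometry after collagenase digestion of the fat. The series design gives the lean myeloid samples as 2 pools of cells from 4 mice, so that each array is a pool and not a mouse. CD11c is the product of Itgax, and no sort marker other than CD11c is given in the sources used here, nor is the age of the mice. The same cell types of obese mice on a high-fat diet (HFD, 60% fat), HFD ATDC and HFD CD11c- ATM, were used as a second comparison, with 3 pools of 3 or 4 mice each. The other 14 arrays of the series were CD11c+ ATM, CD11c- ATM and CD11c+ ATM after weight loss (WL, 12 weeks of HFD followed by 8 weeks without it) and preadipocytes (PA) of ND and HFD mice, and entered the fit that estimates the spread.

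Dendritic cells take up antigen, carry it to lymph nodes along gradients read by the chemokine receptor CCR7, and present it to T cells on MHC class II. Conventional dendritic cells are divided into type 1 (cDC1), which cross-present antigen to CD8 T cells, and type 2 (cDC2), which mainly prime CD4 T cells. Resident macrophages of fat stay in the tissue, take up dying cells, lipid and iron, and line its vessels. In lean fat they carry surface proteins such as LYVE1, FOLR2, CD163 and VSIG4.

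Values are the deposited normalised log2 expression values, with 1 probe row for each of 22180 named genes, and a difference of 1 unit is a 2-fold difference. A gene was tested where at least 2 of 24 arrays lay above their own array's median, which held for 15496 genes. Differences are ND ATDC minus ND CD11c- ATM, given with the standard error (SE) of a limma fit over all 24 arrays and its Benjamini-Hochberg adjusted p, and a gene passed the threshold at an adjusted p under 0.05. Across tested genes the ND ATDC arrays correlated with each other at r = 0.943, the ND CD11c- ATM arrays at r = 0.961, and arrays of the 2 cell types with each other at r = 0.883 to 0.893. Array medians lay between 2.96 and 3.15 in the whole series. For a gene that rose above its array's median on none of the arrays of 1 cell type, a lower bound for the difference was taken from that median and is written as "at least".

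The lean cell types differed in 1282 genes. Of the genes tested, 569 were higher in ND ATDC (3.67%) and 713 were lower (4.6%), and the median difference over all genes tested was -0.01. None of the 1282 overlapped between the 2 groups, and 3046 genes had an unadjusted p under 0.05. With 2 arrays a side, groups can also separate where there is no difference. The share of all tested genes without overlap was not counted. The number passing was 825 without ND ATDC replicate 1, 968 without ND ATDC replicate 2, 730 without ND CD11c- ATM replicate 1 and 738 without ND CD11c- ATM replicate 2, and 442 genes passed in every one of these (188 higher, 254 lower). Differences of over 4 log2 units were seen for 43 of the higher and 54 of the lower genes. In 108 of the higher genes no ND CD11c- ATM array lay above its median, and in 76 of the lower genes no ND ATDC array did. A gene could be tested through arrays of any group, and these shares over all tested genes were not counted.

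**Figure D1:**
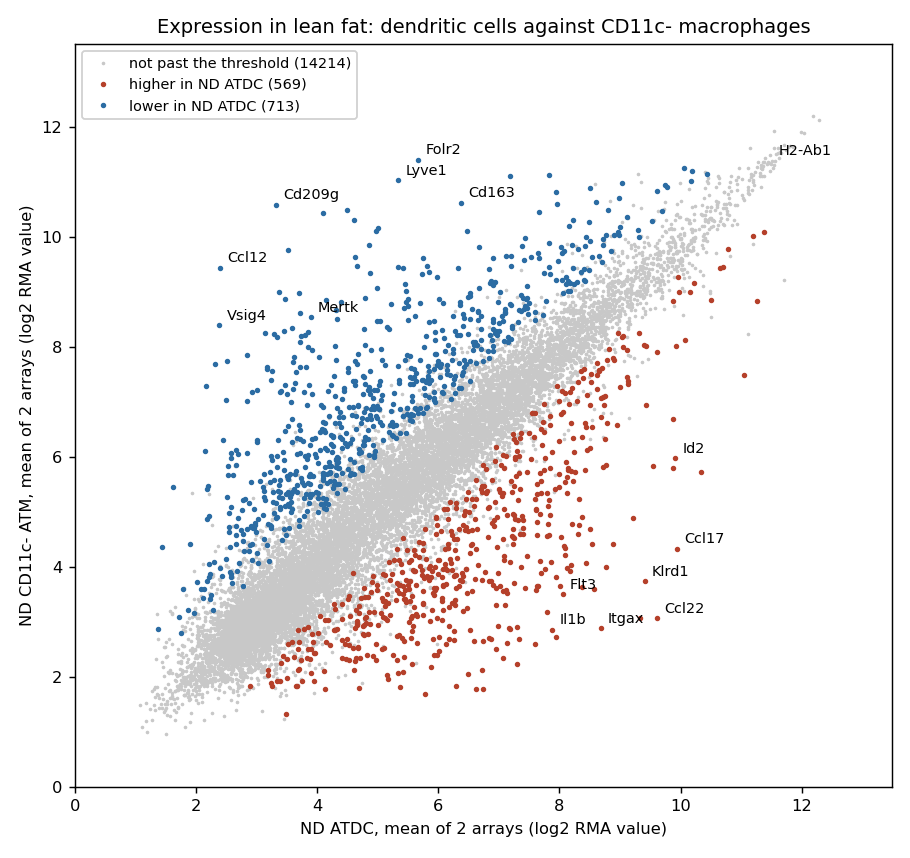
Mean log2 expression value of each of 15496 tested genes in ND ATDC (x axis, 2 arrays) and in ND CD11c- ATM (y axis, 2 arrays). Red points are the 569 genes higher and blue points the 713 genes lower in ND ATDC, and the class II gene H2-Ab1 lies among the grey genes near the upper end of the diagonal.

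The largest rises in ND ATDC included the 2 ligands of the chemokine receptor CCR4, lectin-like receptors of natural killer (NK) cells, and Il1b. Ccl22 stood at 9.88 and 9.35 in ND ATDC, against 3.90 and 2.24 in ND CD11c- ATM (6.55 ± 0.93, adjusted p = 0.00012). Ccl17 stood at 9.91 and 9.98 in ND ATDC, against 4.57 and 4.07 in ND CD11c- ATM (5.62 ± 0.97, adjusted p = 0.00072). Both CCR4 ligands, which attract regulatory and type 2 helper T cells, were far apart between the cell types on all 4 arrays. Il1b, which encodes the inflammatory cytokine IL-1β, stood at 8.57 and 7.18 in ND ATDC, against 3.43 and 2.28 in ND CD11c- ATM (5.02 ± 0.46, adjusted p = 7.3e-07). Gpr141b, an orphan receptor gene, was higher by 6.26 ± 0.56 and P2ry10, a receptor for lysophospholipids, by 4.95 ± 0.38. Mmp12 (macrophage elastase, 4.78 ± 0.55), Slc7a11 (the cystine transporter, 4.73 ± 0.82) and Dna2 (a nuclease and helicase of DNA replication, 4.65 ± 0.55) completed the rises that were not NK receptors or lineage genes. For P2ry10, Slc7a11 and Dna2 no ND CD11c- ATM array lay above its median, and the differences were at least 3.62, 3.95 and 4.22. The 15 largest rises each passed with any of the 4 arrays left out.

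Itgax stood at 8.57 and 8.78 in ND ATDC, against 3.01 and 2.76 in ND CD11c- ATM (5.79 ± 0.73, adjusted p = 2.8e-05, at least 5.57). Since the macrophages were sorted without CD11c, this checks the sort and is not a result of the comparison.

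Part of the genes of the dendritic cell lineage were higher in ND ATDC. Of 20 pan-dendritic cell genes tested, 9 were higher and 1 was lower (median difference 1.30), where 3.67% of all genes were higher. Without Itgax, 8 of 19 were higher. Flt3, the receptor for the growth factor on which dendritic cells depend, stood at 8.07 and 8.03 in ND ATDC, against 3.76 and 3.25 in ND CD11c- ATM (4.55 ± 0.36, adjusted p = 1.5e-07). The 2 ND ATDC arrays were nearly equal and over 4 units above either macrophage array. Btla, an inhibitory receptor of dendritic cells and lymphocytes, was higher by 4.32 ± 0.48, Dpp4 (the protease CD26) by 4.13 ± 0.66 and Haao, an enzyme of tryptophan breakdown, by 3.81 ± 0.53. The lower gene was the protease gene Adam19 (-1.53). Zbtb46, a transcription factor of conventional dendritic cells, stood at 5.82 and 5.74 in ND ATDC and at 5.12 and 5.03 in ND CD11c- ATM, a difference that missed the threshold (0.71 ± 0.27, adjusted p = 0.12).

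**Figure D2:**
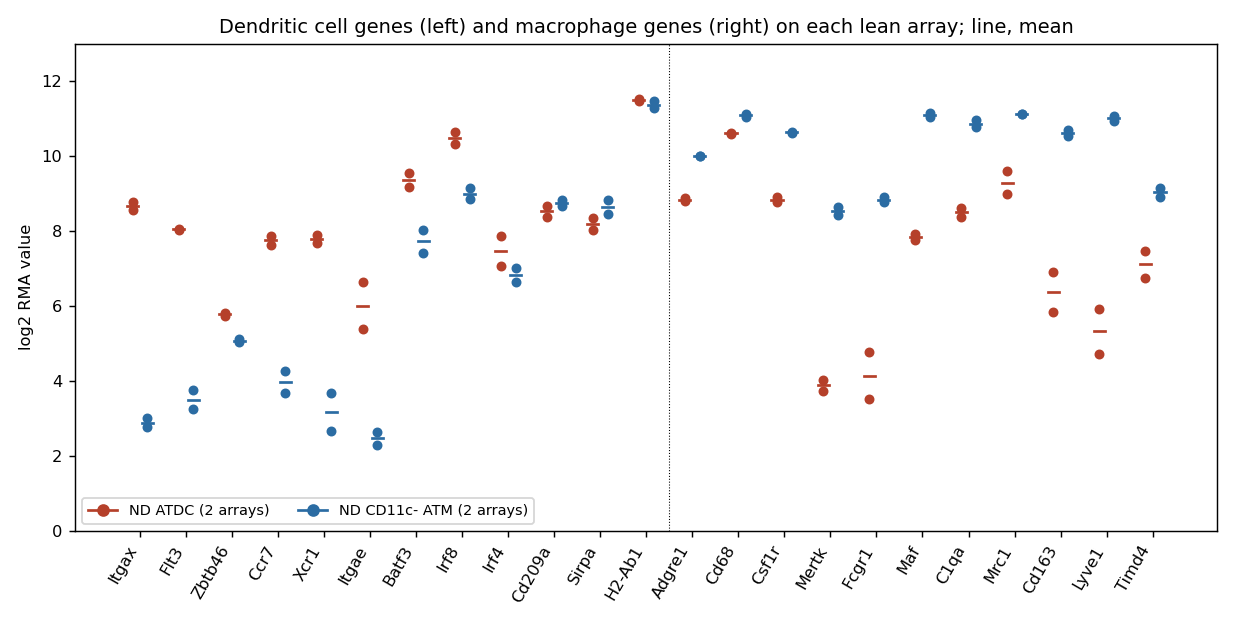
Log2 expression values of 12 genes of dendritic cells (left of the dotted line) and 11 of macrophages (right) on each lean array, with ND ATDC in red, ND CD11c- ATM in blue and a short line at the mean of 2 arrays. Flt3, Ccr7 and Xcr1 stand near 8 in ND ATDC and near or under 4 in ND CD11c- ATM, Mertk and Fcgr1 show the opposite order, and Cd209a, Sirpa, H2-Ab1 and Cd68 lie close together.

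Of 21 cDC1 genes tested, 12 were higher in ND ATDC and 0 were lower (median 2.44). Between 10 and 12 were higher with any of the 4 arrays left out. Xcr1, the chemokine receptor that marks cDC1, stood at 7.69 and 7.90 in ND ATDC, against 2.68 and 3.68 in ND CD11c- ATM (4.61 ± 0.56, adjusted p = 2e-05). Itgae, which encodes CD103, stood at 6.64 and 5.39 in ND ATDC, against 2.29 and 2.65 in ND CD11c- ATM (3.54 ± 0.41, adjusted p = 1.1e-05, at least 2.90). Neither gene overlapped between the groups. Gcsam, a signalling protein shared with germinal centre B cells, was higher by 5.22 ± 0.49, Septin3 (a cytoskeletal GTPase) by 4.19 ± 0.89, and Id2, a transcriptional inhibitor needed for cDC1 and for NK cells, by 3.93 ± 0.39. Cd24a rose by 3.57 ± 0.91 (adjusted p = 0.017), but missed the threshold when any 1 of the 4 arrays was left out (adjusted p up to 0.1).

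The 2 transcription factors that cDC1 require were higher on both ND ATDC arrays without passing. Irf8 stood at 10.64 and 10.34 in ND ATDC, against 8.86 and 9.15 in ND CD11c- ATM (1.49 ± 0.90, adjusted p = 0.41). Batf3 stood at 9.55 and 9.17 in ND ATDC, against 7.41 and 8.05 in ND CD11c- ATM (1.63 ± 0.58, adjusted p = 0.099). Groups did not overlap for either gene, though 2 arrays a side can separate where there is no difference. In a fit without the 6 PA arrays the SE was 0.32 for Irf8 and 0.39 for Batf3, and both passed (adjusted p = 0.010 and 0.018). Fewer genes passed in that fit, 1099 in place of 1282. Of the results for genes chosen for naming, 4 gained and 19 lost their call in it. Many of these genes were named because they had passed, and such genes could only lose a call. The balance of gains and losses therefore cannot show whether that fit favoured calls.

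Genes of cDC2 were split. Of 18 tested, 4 were higher and 1 was lower, with a median of 0.08. The DC-SIGN gene Cd209a stood at 8.69 and 8.39 in ND ATDC, against 8.84 and 8.68 in ND CD11c- ATM (-0.22 ± 0.73, adjusted p = 0.93). Sirpa, the receptor for the "do not eat me" signal CD47, stood at 8.34 and 8.04 in ND ATDC and at 8.45 and 8.82 in ND CD11c- ATM (-0.44 ± 0.33, adjusted p = 0.53), and Irf4, the transcription factor of cDC2, differed by 0.64 ± 0.53 (adjusted p = 0.6). Both cell types thus carried these 3 genes well above the array medians. The higher members were Ffar4 (a fatty acid receptor, 3.94 ± 0.74), Cd7 (3.88 ± 0.55, also a T and NK cell gene), Tnip3 (an inhibitor of NF-κB signalling, 3.47 ± 0.62) and Plet1 (2.69 ± 0.79). Plet1 stood at 4.78 and 7.34 in ND ATDC, and without ND ATDC replicate 2 or either macrophage array it did not pass (adjusted p up to 0.44). The lower member was Klf4 (-1.50 ± 0.37), which did not pass without ND ATDC replicate 1 or ND CD11c- ATM replicate 2 (adjusted p up to 0.17).

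Genes that dendritic cells switch on as they mature and migrate were higher in part. Of 20 tested, 9 were higher and 0 were lower (median 1.74). The count was 4 without ND ATDC replicate 1, 7 without ND ATDC replicate 2 and 5 without either macrophage array. Ccr7 stood at 7.88 and 7.64 in ND ATDC, against 3.67 and 4.25 in ND CD11c- ATM (3.80 ± 0.56, adjusted p = 0.00016). All 4 arrays kept the cell types apart for this receptor, which guides dendritic cells to lymph nodes. Tnfrsf4, which encodes the costimulatory receptor OX40, was higher by 2.43 ± 0.49 (adjusted p 0.061 without ND CD11c- ATM replicate 2), and Nudt17, a hydrolase gene, by 2.00 ± 0.52 (adjusted p up to 0.36 without ND ATDC replicate 1 or ND CD11c- ATM replicate 2). Il12b, the shared subunit of IL-12 and IL-23, stood at 5.06 and 2.73 in ND ATDC, against 2.30 and 1.85 in ND CD11c- ATM (1.82 ± 0.50, adjusted p = 0.027, at least 0.78). It missed the threshold without ND ATDC replicate 1 or either macrophage array (adjusted p up to 0.49). Of 21 costimulatory and checkpoint genes, 3 were higher and 0 were lower (median 0.41): Btla, Havcr2 (TIM-3, 2.83 ± 0.41) and Cd274 (PD-L1, 1.79 ± 0.55, adjusted p = 0.048), the last of which failed with any array left out.

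The classical MHC class II genes did not pass the threshold, while a few other genes of antigen presentation did. Of 26 genes of antigen presentation tested, 5 were higher and 1 was lower (median 0.35), with 3 higher without ND ATDC replicate 1. H2-Ab1 stood at 11.48 and 11.53 in ND ATDC, against 11.30 and 11.46 in ND CD11c- ATM (0.12 ± 0.74, adjusted p = 0.97), and H2-Aa and H2-Eb1 differed by 0.22 ± 0.80 and 0.24 ± 0.69. These values lay near the top of the range of values on these arrays. H2-Oa, which encodes a chain of H2-O, a brake on peptide loading, stood at 7.04 and 8.20 in ND ATDC, against 3.09 and 4.07 in ND CD11c- ATM (4.04 ± 0.48, adjusted p = 1.5e-05). H2-DMb2, a chain of the H2-M peptide editor, stood at 9.95 and 9.79 in ND ATDC, against 6.34 and 5.26 in ND CD11c- ATM (4.07 ± 0.72, adjusted p = 0.00087). Neither pair of groups overlapped. Tap1, of the peptide transporter for class I, was higher by 2.32 ± 0.35, H2-Ob (the partner of H2-Oa) by 1.68 ± 0.43 and the class II β chain gene H2-Eb2 by 1.29 ± 0.30 (at least 0.81). H2-Ob missed the threshold without ND CD11c- ATM replicate 2 or either ND ATDC array and H2-Eb2 without ND ATDC replicate 1 or ND CD11c- ATM replicate 1 (adjusted p up to 0.3 and 0.094). The lower member was Lgmn, the lysosomal protease legumain (-2.86 ± 0.39, adjusted p = 7.6e-05). Ciita, the master regulator of class II transcription, differed by 1.06 ± 0.34 (adjusted p = 0.058).

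Promoter windows of 4 class II genes are shown because 2 of them differed between the cell types (H2-Oa and H2-Eb2) and 2 did not pass (H2-Aa and H2-Eb1), while all carry the Y box, the site of the factor NF-Y in class II promoters. Each window is the RefSeq sequence from 250 bases before to 50 bases after the annotated start (build GRCm38.p6), read 5′ to 3′ on the gene's strand. Capitals mark the Y box letters CTGATTGG, searched on both strands. Windows lie at chr17:34092129-34092428 on the plus strand for H2-Oa, chr17:34325425-34325724 on the plus strand for H2-Eb2, chr17:34287774-34288073 on the minus strand for H2-Aa and chr17:34305617-34305916 on the plus strand for H2-Eb1.
H2-Oa: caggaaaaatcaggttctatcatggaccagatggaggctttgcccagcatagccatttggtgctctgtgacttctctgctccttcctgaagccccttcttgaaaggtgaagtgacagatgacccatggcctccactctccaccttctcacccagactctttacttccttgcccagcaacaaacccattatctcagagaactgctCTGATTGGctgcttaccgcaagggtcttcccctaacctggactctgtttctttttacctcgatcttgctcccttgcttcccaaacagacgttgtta
H2-Eb2: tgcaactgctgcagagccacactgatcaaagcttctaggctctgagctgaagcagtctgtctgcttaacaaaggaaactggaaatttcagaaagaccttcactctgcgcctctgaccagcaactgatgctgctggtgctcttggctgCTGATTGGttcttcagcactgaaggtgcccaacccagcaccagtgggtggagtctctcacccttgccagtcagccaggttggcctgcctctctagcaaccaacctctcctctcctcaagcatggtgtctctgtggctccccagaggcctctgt
H2-Aa: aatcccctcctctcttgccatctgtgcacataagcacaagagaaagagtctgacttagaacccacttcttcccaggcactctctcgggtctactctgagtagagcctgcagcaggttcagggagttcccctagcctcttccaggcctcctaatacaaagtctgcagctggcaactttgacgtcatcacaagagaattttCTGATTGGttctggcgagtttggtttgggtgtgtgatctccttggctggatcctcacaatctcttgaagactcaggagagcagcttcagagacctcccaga
H2-Eb1: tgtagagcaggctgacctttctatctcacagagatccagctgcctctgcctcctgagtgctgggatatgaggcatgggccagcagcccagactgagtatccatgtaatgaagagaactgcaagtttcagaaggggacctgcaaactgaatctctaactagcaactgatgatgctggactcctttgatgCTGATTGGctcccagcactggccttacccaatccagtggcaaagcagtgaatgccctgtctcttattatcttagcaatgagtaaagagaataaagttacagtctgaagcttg
The Y box began 46 bases before the start in H2-Oa, 103 in H2-Eb2, 51 in H2-Aa and 62 in H2-Eb1. The same letters stood in a window of 7 of the 20 antigen presentation genes with one, in 9.19% of the genes higher in ND ATDC (42 of 457 with a window), in 3.91% of those lower (22 of 562) and in 5.99% of all tested genes with a window (719 of 12006). Among the other antigen presentation genes higher in ND ATDC, Tap1 held these letters, while H2-DMb2 and H2-Ob did not. Lgmn, the lower gene, did not hold them either. A match is a description of these letters and not evidence of binding.

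Macrophage identity genes were lower in ND ATDC, but many stayed at high levels there. Of 22 tested, 0 were higher and 15 were lower (median -1.81), where 4.6% of all genes were lower. The count of lower members was 8 without ND ATDC replicate 1, 12 without ND ATDC replicate 2, 9 without ND CD11c- ATM replicate 1 and 10 without ND CD11c- ATM replicate 2. Mertk, a receptor for dying cells, stood at 3.74 and 4.04 in ND ATDC, against 8.43 and 8.64 in ND CD11c- ATM (-4.64 ± 0.42, adjusted p = 6e-07). Fcgr1, the antibody receptor CD64, stood at 3.52 and 4.76 in ND ATDC, against 8.77 and 8.91 in ND CD11c- ATM (-4.70 ± 0.83, adjusted p = 0.00091). These 2 genes, commonly used to tell macrophages from dendritic cells, stood within 2 units of the array medians in ND ATDC. Tcn2 (a carrier of vitamin B12, -3.50 ± 0.40) and Abca1 (a cholesterol exporter, -3.48 ± 0.30) fell with every array left out in turn. Tlr7 (-3.24 ± 0.68) missed the threshold without ND ATDC replicate 1 (adjusted p = 0.057).

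Maf, a transcription factor of macrophages, stood at 7.76 and 7.91 in ND ATDC, against 11.1 and 11.2 in ND CD11c- ATM (-3.28 ± 0.92, adjusted p = 0.031). It missed the threshold with any of the 4 arrays left out (adjusted p up to 0.14), although the groups lay over 3 units apart on each array. Csf1r, the receptor for the macrophage growth factor, stood at 8.91 and 8.77 in ND ATDC and at 10.6 and 10.6 in ND CD11c- ATM (-1.80 ± 0.67, adjusted p = 0.12), and Mrc1, the mannose receptor, differed by -1.84 ± 0.67 (adjusted p = 0.11). Without the PA arrays Csf1r and Mrc1 passed (adjusted p = 0.0018 and 0.011). With Irf8 and Batf3 they were the only 4 results for genes chosen for naming that gained a call in that fit. In the same fit 19 other such results lost their call, and these are not listed here. Adgre1, which encodes a surface marker of mouse macrophages, stood at 8.80 and 8.89 in ND ATDC and at 9.998 and 10.02 in ND CD11c- ATM (-1.16 ± 0.67, adjusted p = 0.38). Cd68 (-0.48 ± 0.60) and Cd14 (-0.71 ± 0.55) did not pass either. In pooled cells, fewer macrophages in a sort and less of a transcript per cell cannot be told apart.

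Genes of resident macrophages were among the largest falls. Of 32 tested, 0 were higher and 21 were lower (median -2.50), and 17 to 19 were lower with any array left out. Cd209g, a DC-SIGN-like lectin, stood at 2.96 and 3.68 in ND ATDC, against 10.57 and 10.59 in ND CD11c- ATM (-7.26 ± 0.97, adjusted p = 5.4e-05). Gas6, which bridges dying cells to MERTK and AXL, stood at 4.17 and 4.02 in ND ATDC, against 10.33 and 10.52 in ND CD11c- ATM (-6.33 ± 0.38, adjusted p = 1.1e-08). Both stood within 2 units of the array medians in ND ATDC and above 10 in the macrophages. Lyve1, the hyaluronan receptor, stood at 4.73 and 5.93 in ND ATDC, against 11.09 and 10.95 in ND CD11c- ATM (-5.69 ± 0.76, adjusted p = 5.6e-05). Folr2 (folate receptor β) stood at 5.25 and 6.08 in ND ATDC, against 11.37 and 11.43 in ND CD11c- ATM (-5.73 ± 0.66, adjusted p = 1e-05). Vsig4, a complement receptor, stood at 2.01 and 2.76 in ND ATDC, against 8.44 and 8.34 in ND CD11c- ATM (-6.01 ± 0.94, adjusted p = 0.00029, at least -5.26 in size). Stab1, a scavenger receptor, differed by -5.63 ± 0.46. Timd4, which binds the phosphatidylserine of dying cells, missed the threshold (-1.92 ± 0.60, adjusted p = 0.055).

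Other genes among the 15 largest falls were Chp2 (a calcium-binding protein, -6.23 ± 0.46), Ednrb (the endothelin B receptor, -5.70 ± 0.76), the lectin gene Cd209b (-5.41 ± 0.55), Snx24 (a sorting nexin, -5.37 ± 0.56), Npl (which breaks down sialic acid, -5.28 ± 0.55) and Ms4a7 (a membrane protein of macrophages, -5.16 ± 0.82). Each passed with any array left out. ND ATDC replicate 2 stood above replicate 1 for some of these: Ms4a7 was 3.04 and 6.96 and Ednrb 3.26 and 5.95 on ND ATDC replicates 1 and 2, against 10.2 and 10.1 and against 10.28 and 10.33 in ND CD11c- ATM. The median of the resident macrophage genes on an array was 6.32 and 6.71 in ND ATDC, against 10.3 and 10.2 in ND CD11c- ATM. Cross-hybridisation between near relatives, such as Cd209b and Cd209g, the Ms4a genes or the Klr genes, could not be checked without the probe sequences, which were not used here.

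Chemokine genes passed in both directions. Of 30 ligand genes tested, 4 were higher and 5 were lower in ND ATDC (median -0.46), with 3 lower without ND ATDC replicate 1 or ND CD11c- ATM replicate 2. Ccl12 stood at 1.79 and 3.00 in ND ATDC, against 9.25 and 9.62 in ND CD11c- ATM (-7.04 ± 0.92, adjusted p = 4.6e-05), and Ccl8 at 3.60 and 5.40 in ND ATDC, against 10.8 and 10.2 in ND CD11c- ATM (-5.98 ± 0.85, adjusted p = 0.00011). These monocyte attractants lay on the macrophage side as far as Ccl22 and Ccl17 lay on the dendritic cell side. Xcl1, the ligand of XCR1 and a product of NK and T cells, stood at 10.35 and 10.34 in ND ATDC, against 4.76 and 6.69 in ND CD11c- ATM (4.62 ± 0.88, adjusted p = 0.0017). The B cell attractant Cxcl13 differed by -3.24 ± 0.88 and missed the threshold without ND ATDC replicate 1 or either macrophage array (adjusted p up to 0.31). Of 28 chemokine and chemoattractant receptors, 6 were higher and 4 were lower (median 0.30). Beside Xcr1 and Ccr7, the leukotriene B4 receptor gene Ltb4r1 was higher (3.72 ± 0.67), and S1pr1, which senses sphingosine 1-phosphate (-3.56 ± 0.41), and the receptors for complement fragments C5ar1 (-3.87 ± 0.78) and C3ar1 (-3.14 ± 0.56) were lower. C5ar1 stood at 4.73 and 6.76 in ND ATDC and missed the threshold without replicate 1 (adjusted p = 0.073).

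Among receptors for uptake and complement genes, more members were lower than higher in ND ATDC. Of 32 genes for uptake of dying cells and scavenging, 1 was higher and 11 were lower (median -0.69). The lower count was 7 without ND ATDC replicate 1 or ND CD11c- ATM replicate 1, 10 without ND ATDC replicate 2 and 8 without ND CD11c- ATM replicate 2. Cd163, the haemoglobin scavenger receptor, stood at 5.84 and 6.91 in ND ATDC, against 10.53 and 10.70 in ND CD11c- ATM (-4.24 ± 0.63, adjusted p = 0.00016). The collectin Colec12 differed by -4.19 ± 0.55, and Msr1 (scavenger receptor A) by -3.37 ± 0.77, which missed the threshold without ND ATDC replicate 1 or either macrophage array (adjusted p up to 0.079). The higher gene was Olr1, a receptor for oxidised LDL (2.67 ± 0.62, at least 1.86), which did not pass without ND ATDC replicate 1 or ND CD11c- ATM replicate 2 (adjusted p up to 0.14). Of 24 complement genes, 9 were lower (median -1.11), and apart from Itgax, the gene of the sort marker, 0 were higher, with 5 lower without ND ATDC replicate 1 or ND CD11c- ATM replicate 1. C4b was lower by -4.47 ± 0.57. C1qa stood at 8.38 and 8.62 in ND ATDC, against 10.97 and 10.78 in ND CD11c- ATM (-2.38 ± 0.65, adjusted p = 0.025). It missed the threshold with any of the 4 arrays left out (adjusted p up to 0.14). C6 (-2.47 ± 0.48) missed it without ND CD11c- ATM replicate 1 (adjusted p = 0.065).

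The promoter windows of Btla (chr16:45224087-45224386, plus strand) and C1qc (chr4:136892865-136893164, minus strand) are shown because these genes lay on opposite sides and both windows hold the core of the PU.1 site, the ETS factor of the myeloid lineage. Capitals mark the letters GAGGAAGT or their reverse complement, in the same kind of RefSeq window as above.
Btla: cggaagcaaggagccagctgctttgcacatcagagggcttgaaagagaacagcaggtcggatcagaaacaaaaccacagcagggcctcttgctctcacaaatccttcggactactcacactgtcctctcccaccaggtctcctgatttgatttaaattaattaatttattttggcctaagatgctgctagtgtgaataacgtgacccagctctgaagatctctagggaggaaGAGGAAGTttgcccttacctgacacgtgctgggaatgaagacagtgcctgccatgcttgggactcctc
C1qc: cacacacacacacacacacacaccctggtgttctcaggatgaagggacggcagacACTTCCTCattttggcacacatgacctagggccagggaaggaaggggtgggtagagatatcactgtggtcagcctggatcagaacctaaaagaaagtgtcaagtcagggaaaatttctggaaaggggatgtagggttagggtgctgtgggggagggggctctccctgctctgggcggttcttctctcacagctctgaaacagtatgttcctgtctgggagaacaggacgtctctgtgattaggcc
The match began 18 bases before the start in Btla and 195 in C1qc. C1qc, a chain of the first complement component, stood at 5.91 and 6.31 in ND ATDC, against 7.97 and 7.88 in ND CD11c- ATM (-1.82, adjusted p = 0.0066), and missed the threshold without ND ATDC replicate 1 or ND CD11c- ATM replicate 1 (adjusted p up to 0.074). The PU.1 letters stood in 7.66% of the genes higher in ND ATDC (35 of 457), in 4.27% of those lower (24 of 562) and in 3.77% of all (453 of 12006). The composite ETS-IRF motif stood in 3.06% of the higher, 3.38% of the lower and 2.89% of all genes, and the E box letters CACGTGAC, the core of sites for lysosomal gene regulators, in 1.97%, 3.38% and 4.14%. Spi1, which encodes PU.1, stood at 8.89 and 8.95 in ND ATDC and at 8.99 and 9.16 in ND CD11c- ATM (-0.16 ± 0.55, adjusted p = 0.94).

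**Figure D3:**
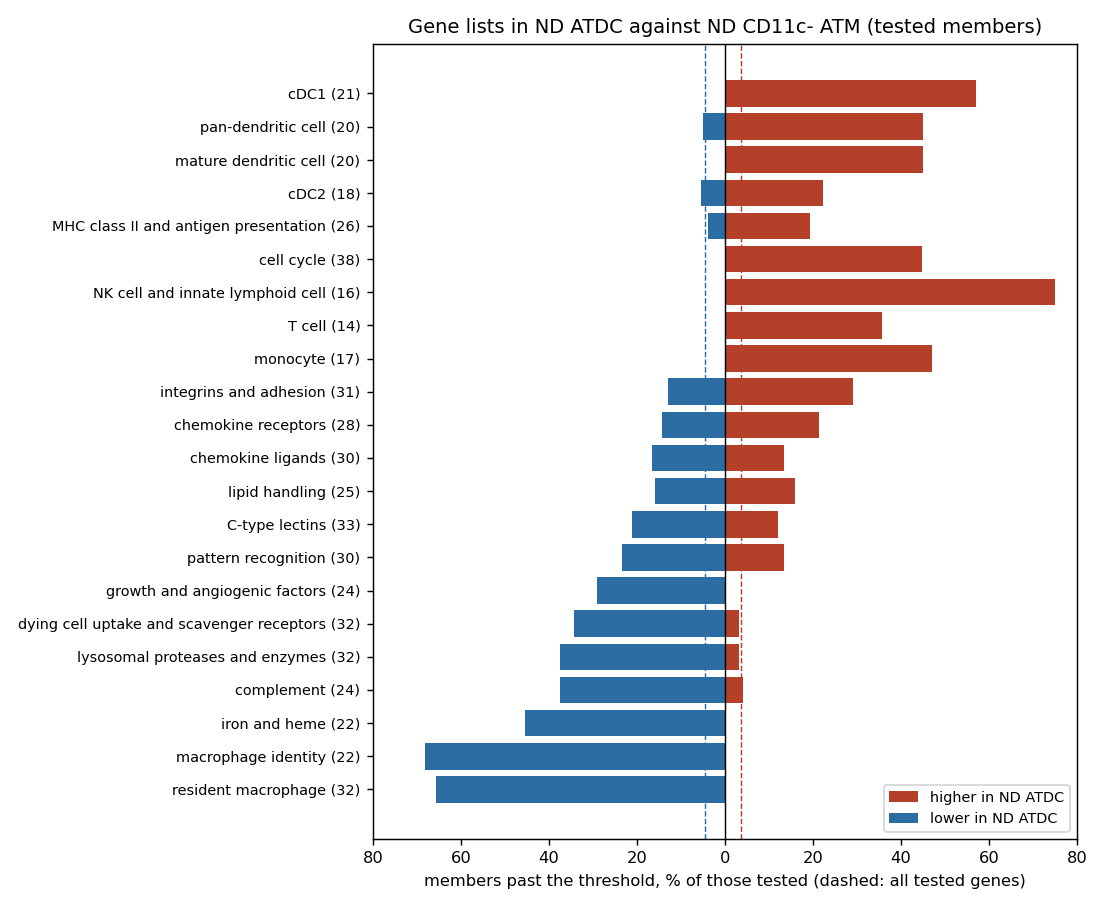
Members of 22 gene lists past the threshold, as a percentage of the tested members (number after each name), with red bars to the right for genes higher and blue bars to the left for genes lower in ND ATDC. Dashed lines are the shares over all tested genes, 3.67% higher and 4.6% lower, and the bars reach 12 of 16 NK cell genes on the right and 15 of 22 macrophage identity genes on the left.

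Of the genes of iron and heme handling, 0 of 22 were higher and 10 were lower in ND ATDC (median -0.98). The count was 5 without ND CD11c- ATM replicate 1, 6 without ND CD11c- ATM replicate 2 and 7 without either ND ATDC array. Slc40a1, the iron exporter ferroportin, stood at 4.56 and 2.88 in ND ATDC, against 7.60 and 7.65 in ND CD11c- ATM (-3.91 ± 0.62, adjusted p = 0.00035). Cp (ceruloplasmin, which oxidises iron, -3.72 ± 0.57), Tfrc (the transferrin receptor, -3.43 ± 0.36) and Blvrb (biliverdin reductase B, -2.85 ± 0.35) also fell. Spic, the transcription factor of iron-recycling macrophages, differed by -2.67 ± 0.63, and missed the threshold without ND ATDC replicate 2 or either macrophage array (adjusted p up to 0.094).

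Of 32 lysosomal genes, 1 was higher and 12 were lower (median -0.58). The lower count was 4 without ND ATDC replicate 1 or ND CD11c- ATM replicate 2, 8 without ND ATDC replicate 2 and 5 without ND CD11c- ATM replicate 1. Beside Lgmn, Ctsf (-2.55 ± 0.40), Ctsl (cathepsin L, -2.07 ± 0.38) and Tpp1 (a tripeptidase, -1.79 ± 0.37) were lower and passed with any array left out. The galactosylceramidase gene Galc (-2.37 ± 0.59) did not pass without ND ATDC replicate 1 or either macrophage array (adjusted p up to 0.28). The higher gene was Ctsw, a cathepsin of NK and cytotoxic T cells (3.36 ± 0.75), which missed the threshold without ND CD11c- ATM replicate 1 (adjusted p = 0.1). The median of this list on an array was 9.10 and 9.0 in ND ATDC, against 9.82 and 10.01 in ND CD11c- ATM, so that both cell types kept lysosomal genes at high levels.

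Lipid genes moved both ways, with 4 of 25 higher and 4 lower (median -0.45). The exporter genes of cholesterol split: Abca1 was lower, while Abcg1 stood at 5.64 and 5.75 in ND ATDC, against 3.95 and 4.08 in ND CD11c- ATM (1.68 ± 0.38, adjusted p = 0.0072). Apoe, which carries cholesterol out of cells, was lower by -1.70 ± 0.21, and Rxra, a nuclear receptor partner, by -1.51 ± 0.37. Pparg, the nuclear receptor of lipid storage, was higher by 1.31 ± 0.32. None of the 4 higher genes passed without ND ATDC replicate 2 or without ND CD11c- ATM replicate 1. Of 22 eicosanoid genes, 2 were higher and 5 were lower (median -0.23), with 1 higher without ND ATDC replicate 1 or ND CD11c- ATM replicate 1. Pla2g2d, a secreted phospholipase, stood at 5.58 and 3.65 in ND ATDC, against 9.61 and 9.64 in ND CD11c- ATM (-5.01 ± 0.58, adjusted p = 1e-05). Ltc4s, which makes leukotriene C4, was lower by -4.81 ± 0.79 and Hpgds, which makes prostaglandin D2, by -4.19 ± 0.70, while the leukotriene B4 receptor was on the dendritic cell side.

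Retinoid and vitamin genes also passed in both directions, with 4 of 19 higher and 4 lower (median -0.06). Aldh1a2, which makes retinoic acid, stood at 8.39 and 8.05 in ND ATDC, against 5.38 and 5.73 in ND CD11c- ATM (2.66 ± 0.59, adjusted p = 0.0062), and missed the threshold without ND ATDC replicate 1 or ND CD11c- ATM replicate 1 (adjusted p up to 0.064). Dhrs9, a retinol dehydrogenase, was higher by 3.71 ± 0.73 (at least 2.77) and Vdr, the vitamin D receptor, by 2.02 ± 0.46 (at least 1.66). The higher count was 1 without ND ATDC replicate 1 or ND CD11c- ATM replicate 1, and the lower count 2 without ND ATDC replicate 2 or ND CD11c- ATM replicate 2. The folate receptor Folr2 and the vitamin B12 carrier Tcn2 were the largest falls of this list.

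Of 24 growth and angiogenic factor genes, 0 were higher and 7 were lower in ND ATDC (median -0.72). Beside Gas6, Pdgfc stood at 2.96 and 3.31 in ND ATDC, against 8.58 and 7.93 in ND CD11c- ATM (-5.12 ± 0.37, adjusted p = 9.5e-08). Igf1 stood at 5.16 and 5.78 in ND ATDC, against 8.99 and 9.02 in ND CD11c- ATM (-3.53 ± 0.30, adjusted p = 4.1e-07). Both encode growth factors that act on stromal cells, and the groups did not overlap. Igfbp4, which binds insulin-like growth factors, was lower by -4.36 ± 0.44, Bmp2 by -3.50 ± 0.62 (at least -2.94 in size), and the VEGF co-receptor Nrp1 by -2.58 ± 0.29. With any array left out, 7 or 8 of the list were lower.

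Apart from Itgax, 8 of 30 integrin and adhesion genes were higher and 4 were lower (median 0.57). Beside Itgae, Itgal (the LFA-1 chain, 3.24 ± 0.61), Itgb7 (which pairs with Itgae, 2.79 ± 0.30) and Cadm1 (a cDC1 adhesion gene, 2.88 ± 0.63) were higher, and Itga9 was lower (-3.07 ± 0.36, at least -2.55 in size). Cadm1 did not pass without ND CD11c- ATM replicate 1 (adjusted p = 0.15), when 5 of the list, Itgax included, were higher, and 2 were lower without ND CD11c- ATM replicate 2. Of 34 lineage transcription factors, 8 were higher and 6 were lower (median 0.54), with 4 higher without ND ATDC replicate 1 or ND CD11c- ATM replicate 1 and 3 lower without ND CD11c- ATM replicate 2. Tfec, a relative of the lysosomal regulator TFEB, was lower by -4.11 ± 0.63. Bhlhe40, a repressor induced in activated immune cells, stood at 8.51 and 8.52 in ND ATDC, against 4.09 and 5.28 in ND CD11c- ATM (3.82 ± 0.54, adjusted p = 9.6e-05), and Bcl11a was higher by 2.85 ± 0.52 (at least 2.44). Of 30 growth factor and cytokine receptors, 4 were higher and 5 were lower (median -0.08), with 2 higher and 3 lower without ND ATDC replicate 1 or ND CD11c- ATM replicate 1. Egfr (-3.18 ± 0.46) and Tgfbr2 (-2.13 ± 0.38) were lower, and Kit, the stem cell factor receptor, was higher (2.86 ± 0.53).

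Pattern recognition receptors passed in both directions, with 4 of 30 higher and 7 lower (median -0.19), and 4 lower without ND ATDC replicate 1 or either macrophage array. Tlr3, which senses double-stranded RNA, stood at 8.72 and 8.79 in ND ATDC, against 5.97 and 6.66 in ND CD11c- ATM (2.44 ± 0.36, adjusted p = 0.00015), and Tlr11, a sensor of profilin, was higher by 2.70 ± 0.43. Tlr5, the flagellin receptor, stood at 3.10 and 1.92 in ND ATDC, against 8.14 and 7.34 in ND CD11c- ATM (-5.23 ± 0.56, adjusted p = 4e-06), with a fall of at least -4.61 in size. Nlrp1b, an inflammasome sensor, was higher by 2.14 ± 0.38, and Nlrp3 was lower by -1.63 ± 0.43, a call that was lost without ND ATDC replicate 2 or either macrophage array (adjusted p up to 0.23). Of 33 C-type lectin genes, 4 were higher and 7 were lower (median -0.26). Clec5a was lower by -3.96 ± 0.61 (at least -2.98 in size) and Clec4n (Dectin-2) by -3.04 ± 0.57, and 1 or 2 members were higher and 4 or 5 lower with an array left out. Of 10 Fc receptor genes, 0 were higher and 2 were lower (median -0.11), Fcgr1 and the neonatal receptor Fcgrt (-2.03 ± 0.31). Of 23 cytokine genes, 3 were higher and 1 was lower (median 0.19), with 1 higher and 0 lower without ND CD11c- ATM replicate 2. Il1rn, which encodes the antagonist of the IL-1 receptor, was higher together with Il1b (2.56 ± 0.55), but missed the threshold without ND CD11c- ATM replicate 2 (adjusted p = 0.061). Of 30 interferon response genes, 0 were higher and 6 were lower (median -0.35), led by Oas2 (-3.82 ± 0.56) and Oasl2 (-3.09 ± 0.44), and 2 to 4 were lower with an array left out.

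Genes of NK cells were high in ND ATDC. Of 16 tested, 12 were higher and 0 were lower (median 3.26), and 8 to 11 were higher with any array left out. Klrd1, which encodes CD94, stood at 9.73 and 9.09 in ND ATDC, against 2.63 and 4.84 in ND CD11c- ATM (5.67 ± 0.63, adjusted p = 6.6e-06). Ncr1, the NK cell receptor NKp46, stood at 7.04 and 8.15 in ND ATDC, against 2.19 and 2.99 in ND CD11c- ATM (5.01 ± 0.68, adjusted p = 6.6e-05, at least 4.49). Both ND ATDC pools carried these genes and neither macrophage pool did above 4.84. Among the largest rises were also the lectin-like receptors Klra9 (5.06 ± 0.60), Klrc1 (4.84 ± 0.79, at least 3.51) and Klrb1b (4.75 ± 0.46). Klrk1 (NKG2D, 4.48 ± 0.64) and the granzymes Gzma (4.16 ± 0.86) and Gzmb (4.00 ± 0.62) were higher too. Eomes (2.80 in ND ATDC and 2.34 in ND CD11c- ATM), Gata3 (3.83 and 3.59) and Rora, transcription factors of NK and other innate lymphoid cells, did not pass. The median of the 16 genes was 7.27 and 7.32 in ND ATDC, against 3.72 and 3.90 in ND CD11c- ATM. The part of NK cells in the rises of Id2, Cd7, Xcl1, Itgal, Ctsw and other genes shared by the 2 lineages was not tested.

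Marker lists of other cells were examined beside these. Of 14 T cell genes, 5 were higher and 0 were lower (median 1.51), with 2 to 4 higher when an array was left out. Lat stood at 7.72 and 6.79 in ND ATDC, against 3.45 and 5.59 in ND CD11c- ATM (2.73 ± 0.74, adjusted p = 0.024, and up to 0.35 without ND ATDC replicate 1 or ND CD11c- ATM replicate 1), and Cd3e was higher by 2.44 ± 0.55, while Cd4 (3.10 in ND ATDC and 3.24 in ND CD11c- ATM) and Cd8a did not pass. The T cell median was 5.22 and 5.39 in ND ATDC, against 3.66 and 4.41 in ND CD11c- ATM. Of 14 B cell genes, 1 was higher and 0 were lower, Fcrla (4.15 ± 0.39, at least 3.73), while the B cell marker Ms4a1 stood at 3.75 in ND ATDC and 3.04 in ND CD11c- ATM. Of 14 plasmacytoid dendritic cell genes, 2 were higher (Cd300c by 4.13 ± 0.48, and Ccr9 by 1.45 ± 0.39) and 2 were lower (Siglech by -3.13 ± 0.78, and Tcf4 by -1.74 ± 0.28). Ccr9 missed the threshold without ND ATDC replicate 2 or ND CD11c- ATM replicate 2 (adjusted p up to 0.35). Siglech missed it without ND ATDC replicate 2 or either macrophage array (adjusted p up to 0.17). Preadipocyte and fibroblast genes gave 1 higher (Dpp4) and 0 lower of 17, endothelial genes 0 higher and 2 lower of 14 (Lyve1 and Eng, with Eng lost without ND ATDC replicate 2), and adipocyte genes 0 and 0 of 8. Neutrophil genes gave 1 higher (S100a8) and 2 lower (Mmp9 and Csf3r) of 10, mast cell genes 1 higher (Kit) and 0 lower of 14, eosinophil genes 1 higher (Siglecf) and 0 lower of 4, and mesothelial genes 0 and 0 of 6. S100a8 missed the threshold without either ND ATDC array or ND CD11c- ATM replicate 1 (adjusted p up to 0.3), and Siglecf without ND ATDC replicate 1 or ND CD11c- ATM replicate 2 (adjusted p up to 0.16). The preadipocyte median was 5.56 and 6.03 in ND ATDC, against 6.15 and 5.85 in ND CD11c- ATM.

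Of 17 monocyte genes, 8 were higher and 0 were lower in ND ATDC (median 1.89). The count was 3 without ND ATDC replicate 1, 8 without ND ATDC replicate 2, 4 without ND CD11c- ATM replicate 1 and 5 without ND CD11c- ATM replicate 2. Treml4, a gene of non-classical monocytes and of some dendritic cells, stood at 8.30 and 8.34 in ND ATDC, against 4.79 and 4.74 in ND CD11c- ATM (3.56 ± 0.55, adjusted p = 0.00025). Ly6c2, of classical monocytes, stood at 9.5 and 9.37 in ND ATDC, against 6.07 and 7.80 in ND CD11c- ATM (2.50 ± 0.56, adjusted p = 0.0067). It missed the threshold without ND ATDC replicate 1 or ND CD11c- ATM replicate 1 (adjusted p up to 0.17). Ace, of non-classical monocytes, was higher by 2.75 ± 0.65 and Fn1 (fibronectin) by 2.42 ± 0.51, with calls lost without ND CD11c- ATM replicate 2 in both, and for Ace also without ND ATDC replicate 1. Ccr2, the receptor that brings monocytes into tissue, was 10.3 and 10.4 in ND ATDC and 9.18 and 9.57 in ND CD11c- ATM and did not pass (adjusted p = 0.6).

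Of 38 cell cycle genes tested, 17 were higher and 0 were lower in ND ATDC (median 1.68). The count was 12 without ND ATDC replicate 1, 10 without ND ATDC replicate 2, 14 without ND CD11c- ATM replicate 1 and 6 without ND CD11c- ATM replicate 2. Rrm2, of deoxynucleotide synthesis, stood at 8.36 and 7.68 in ND ATDC, against 4.71 and 4.35 in ND CD11c- ATM (3.49 ± 0.63, adjusted p = 0.0011). Ccna2 (cyclin A2) was higher by 2.47 ± 0.45 and Ndc80, of the kinetochore, by 4.07 ± 0.87 (at least 3.88), both with any array left out. Ccnb2 (cyclin B2, 2.66 ± 0.54) and the mitotic motor gene Kif11 (2.69 ± 0.58) missed the threshold without ND CD11c- ATM replicate 2 (adjusted p up to 0.12). The NK and T cell medians were also higher on the ND ATDC arrays, and the cells in which these genes were expressed were not tested. Of 30 immediate early and dissociation stress genes, 2 were higher and 5 were lower (median -0.25), among them Ier3 (-3.21 ± 0.85), Egr1 (-1.67 ± 0.41) and Egr3 (2.69 ± 0.77). Between 0 and 2 were higher and 1 and 3 lower with an array left out.

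The same comparison in obese fat took its differences from arrays other than the lean ones. Both comparisons shared each gene's spread from the 1 fit to all 24 arrays, so the calls in the 2 diets were not independent. In obese fat 960 genes passed, 393 higher in HFD ATDC (2.54%) and 567 lower (3.66%). Of the 569 genes higher in ND ATDC, 233 were also higher in HFD ATDC, which is 40.9% of the lean list and 59.3% of the obese list. Of the 713 lower genes, 333 were also lower in HFD ATDC, which is 46.7% of the lean and 58.7% of the obese list, and 2 genes passed in opposite directions. The sign was the same in obese fat for 534 of the 569 and 686 of the 713, and the share over all tested genes was not counted. The median differences of these sets were 1.02 and -1.01 in obese fat, beside 1.96 and -1.80 in lean fat, where they had been chosen. Flt3 (5.02 in obese fat), Ccl22 (6.07), Xcr1 (4.28), Cd209g (-6.10) and Vsig4 (-5.35) passed in obese fat too. Zbtb46, which missed the threshold in lean fat, was higher by 1.78 in obese fat (adjusted p = 2.7e-05).

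The NK cell genes in obese fat depended in part on 1 pool. Their median was 7.11, 4.8 and 5.02 in HFD ATDC replicates 1, 2 and 3, against 3.92, 3.77 and 3.80 in HFD CD11c- ATM, and 9 of 16 were higher with all arrays and 4 without HFD ATDC replicate 1. The count of all genes passing was 599 without that replicate. Cell cycle genes gave 5 of 38 higher in HFD ATDC, and 1 without replicate 1. The cDC1 genes gave 14 of 21 higher, and 11 without replicate 1, and the resident macrophage genes 21 of 32 lower, and 19 without it. Of the preadipocyte genes 12 of 17 were lower in HFD ATDC, where their median was 8.92 on HFD CD11c- ATM replicate 3 and 6.91 and 6.98 on the other 2 macrophage pools.

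**Figure D4:**
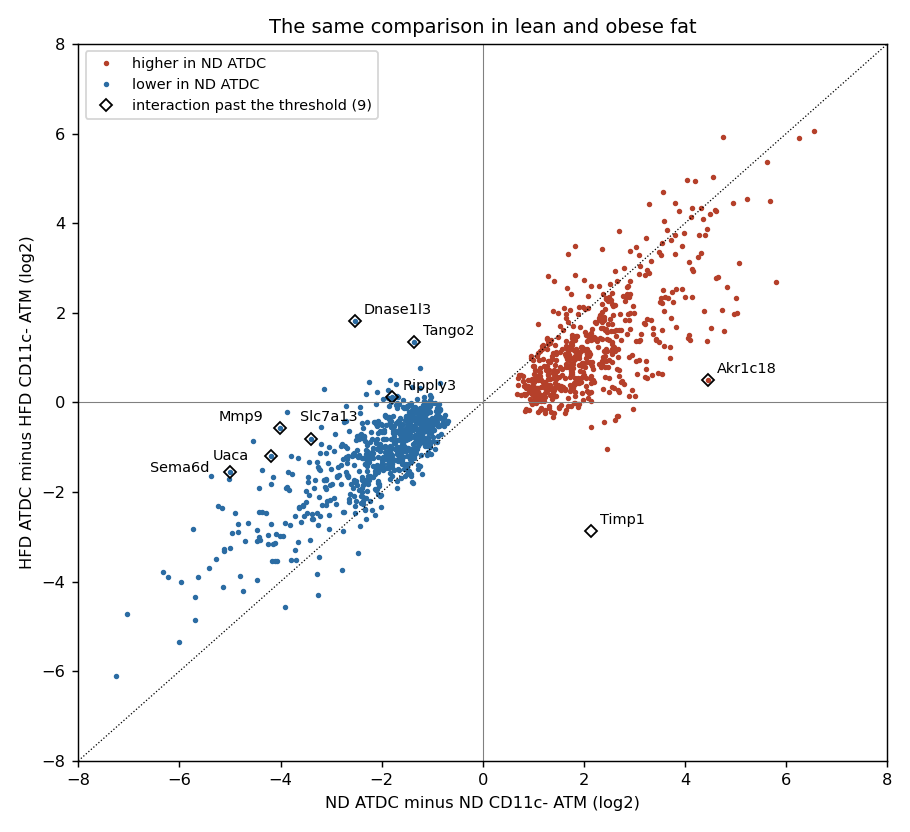
Difference between ATDC and CD11c- ATM in lean fat (x axis, log2) and in obese fat (y axis, log2) for the 569 genes higher (red) and 713 lower (blue) in ND ATDC, with a dotted line of equal differences. Open diamonds mark the 9 genes whose differences themselves differed between diets, with Timp1 at 2.15 and -2.87 and Dnase1l3 at -2.53 and 1.82 on opposite sides of zero.

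A test of the interaction asked which differences between the cell types themselves differed between diets, and 9 genes passed (0.0581%), with 1123 at an unadjusted p under 0.05. Slc7a13, an amino acid transporter gene, stood at 2.45 and 2.71 in ND ATDC, against 5.98 and 5.98 in ND CD11c- ATM. In obese fat it stood at 2.37, 2.10 and 2.46 in HFD ATDC, against 3.25, 2.98 and 3.14 in HFD CD11c- ATM (interaction 2.59 ± 0.29, adjusted p = 0.00044). The lean macrophages were the high group, and this was the only one of the 9 genes to pass with any array left out (adjusted p up to 0.01). Mmp9 (gelatinase B) stood at 5.10 and 5.71 in ND ATDC, against 9.34 and 9.51 in ND CD11c- ATM. It stood at 4.03, 4.32 and 3.81 in HFD ATDC, against 4.30, 5.30 and 4.27 in HFD CD11c- ATM (interaction 3.44 ± 0.50, adjusted p = 0.011), and missed the threshold without either lean macrophage array (adjusted p up to 0.058). The other 7 genes were Timp1, Akr1c18, Ripply3, Tango2, Uaca, Sema6d and Dnase1l3.

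**Figure D5:**
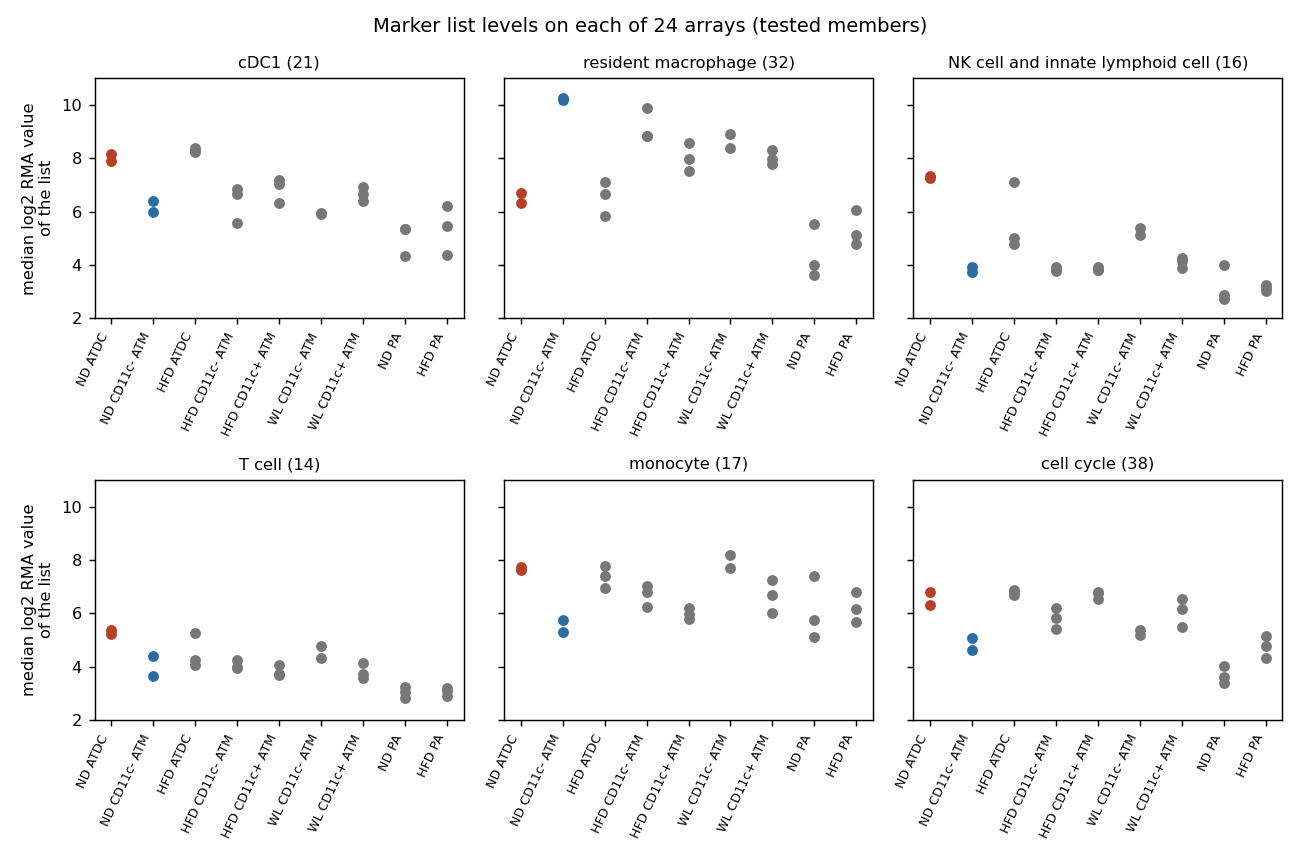
Median log2 expression value of 6 gene lists on each of 24 arrays, by group, with the number of tested members after each list name, ND ATDC in red and ND CD11c- ATM in blue. The NK cell genes stand at 7.27 and 7.32 in ND ATDC and at 7.11 on 1 HFD ATDC array, and the resident macrophage genes are highest, at 10.3 and 10.2, in ND CD11c- ATM.

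Across the 9 groups the genes that set the lean cell types apart fell into different patterns, given here as group means with no test. Flt3 averaged 8.05 in ND ATDC and 8.27 in HFD ATDC, and 3.03 to 4.46 in the other 7 groups. Xcr1 averaged 7.79 and 7.71 in ND and HFD ATDC, and 2.71 to 3.59 elsewhere. These 2 genes, with Btla (7.18 and 7.09, and 2.48 to 2.86 elsewhere), were high in dendritic cells of both diets and at most 4.46 on average in every macrophage and preadipocyte group. Itgax, Mmp12 and Il1b were not of this kind. Mmp12 averaged 8.78 in ND ATDC and 4.00 in ND CD11c- ATM, and 9.35 in HFD CD11c+ ATM, 7.83 in HFD CD11c- ATM and 8.32 in HFD PA. The macrophage identity median averaged 7.24 in HFD PA and 6.05 in ND PA, and the cells that carried Mmp12 in HFD PA were not tested. Il1b averaged 7.88 in ND ATDC and 2.85 in ND CD11c- ATM, and reached 8.23 in WL CD11c- ATM. In that WL group the mast cell and basophil median averaged 7.45, against 2.40 to 3.50 in the other groups. The cells that carried Il1b there were not tested. On the macrophage side, Lyve1 averaged 5.33 in ND ATDC and 5.83 in HFD ATDC, and 11.02, 10.17 and 9.5 in CD11c- ATM of ND, HFD and WL mice, with 8.10 and 8.16 in CD11c+ ATM of HFD and WL mice. Gas6 averaged 4.10 in ND ATDC and 6.14 in HFD ATDC, 8.93 to 10.4 in the macrophage groups, and 8.75 in ND PA and 9.42 in HFD PA, so that it was not confined to macrophages.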

How the data were processed

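RNA of 24 sorted cell samples was measured on single-colour arrays, 1 array per sample. The authors deposited normalised log2 expression values for 41345 probe rows. Per the submitters' processing notes the tools were RMA, oligo and limma (versions not stated). Because RMA brings the arrays to nearly the same distribution, an overall rise or fall of expression in a sample would be largely hidden. The labels name a whole-transcript amplification kit for the cDNA. Names came from the platform annotation supplied for the probe rows: 23521 rows had 1 symbol, 1814 several and 16010 none, and rows with 1 symbol gave 22180 genes, of which 1082 had more than 1 row and kept the row with the highest mean. The filter (above the array's median on 2 or more arrays) kept 15496 genes and left 6684 untested. The number of arrays limits the precision. The p-values rest on the spread between arrays within groups, shared over all 9 groups, and not on that of the lean pools alone. Background calls were not used here, so the array median served as the floor for differences given as at least a size.

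Groups were taken from the sample titles. limma 3.58.1 in R 4.3.3 (lmFit, eBayes) fitted 1 mean per group to all 24 arrays with 15 residual degrees of freedom, and tests were two-sided with Benjamini-Hochberg adjustment over the 15496 genes within each of the lean, obese and interaction comparisons. The code was tested on simulated data with planted changes. The members of the comparison and the 40 gene lists were chosen with earlier results of these data known, and lists share genes. Named genes are the 15 largest rises and 15 largest falls among called genes without overlap between groups (passing over unnamed models, olfactory receptors, antigen receptor segments and small RNA genes), up to 6 members of each list with the largest changes, a set of lineage genes whatever their result, and the 8 largest interactions (the other interaction gene, Ripply3, falls outside this rule). Members given beyond these as examples or group means were chosen after their values were seen. Alternatives were other sets of arrays, filters, variance models, array weights, a second normalization, the mean of all rows of a gene, a fold threshold, the replicate number as a block and leaving out each array. Deviations of same-numbered arrays from their group means correlated at r = 0.0068 in lean fat and at 0.0627, 0.0014 and -0.0064 in obese fat, so the numbers were not treated as pairs. Promoter windows came from RefSeq (GRCm38.p6) and matched 12006 of the tested genes.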

Additional observations from a re-analysis of the deposited data

Results flagged for a closer look

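For 9 genes the difference between ATDC and CD11c- ATM itself differed between obese and lean fat in a test of the interaction (limma, adjusted p under 0.05), and each value here is the HFD difference minus the ND difference on the log2 scale. Timp1, an inhibitor of matrix proteases, had -5.02 ± 0.92 (adjusted p = 0.048) and stood at 4.31, 6.04 and 4.46 in HFD ATDC, against 6.79, 7.47 and 9.16 in HFD CD11c- ATM, and at 5.38 and 6.50 in ND ATDC, against 3.55 and 4.03 in ND CD11c- ATM. The preadipocyte and fibroblast median was 6.91, 6.98 and 8.92 on the same HFD CD11c- ATM arrays, against 6.15 and 5.85 in ND CD11c- ATM. It was 6.21, 6.42 and 6.05 in HFD ATDC and 5.56 and 6.03 in ND ATDC. The part of such cells in the Timp1 values was not tested. Akr1c18, a steroid-metabolising reductase, had -3.95 (adjusted p = 0.031), and was high in ND ATDC (6.77 and 5.81) and at most 3.12 on the other arrays of these groups. Slc7a13 had 2.59 (adjusted p = 0.00044) and Mmp9 had 3.44 (adjusted p = 0.011), both high in ND CD11c- ATM. Dnase1l3, a secreted DNase, had 4.35 (adjusted p = 0.031), with 5.78, 4.10 and 5.54 in HFD ATDC, against 3.83, 2.65 and 3.49 in HFD CD11c- ATM, and 3.95 and 4.24 in ND ATDC, against 6.71 and 6.55 in ND CD11c- ATM.

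The remaining genes were Sema6d (3.44, adjusted p = 0.041), Uaca (3.00), Tango2 (2.70) and Ripply3 (1.91), the last 3 with an adjusted p of 0.048. Of the 9 genes, Slc7a13 passed with any of the 10 arrays left out, Mmp9 was lost without either ND CD11c- ATM array, and the other 7 were lost in 6 to 10 of the 10 cases, with adjusted p up to 0.12 to 0.25.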

How the results depend on the processing

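The count of 1282 genes in lean fat ranged from 1099 to 1381 with array weights, other filters, the mean of all rows, the trend and robust variance, a second quantile normalization and no PA arrays. With only the 4 arrays of the groups compared it was 660, with 306 higher in ND ATDC, and 261 genes passed a test against a log2 change of 1. Leaving out 1 array gave 730 to 968. In obese fat the 960 genes became 395 with only the 6 arrays compared and 139 against a log2 change of 1, and leaving out 1 array gave 599 to 956. The 9 interaction genes became 3 without PA arrays, 4 with no filter, 0 with only the arrays compared and 0 against a log2 change of 1, and leaving out 1 array gave 1 to 15; at an unadjusted p under 0.05 limma gave 1123 interaction genes in the fit to all arrays. With the replicate number within diet as a replicate block, 1275, 916 and 6 genes passed in the lean, obese and interaction tests; the numbers were not shown to pair samples. No named gene past the threshold changed direction under these alternatives. Of 188 results for named genes, 26 to 47 lost their call with 1 lean array left out (47 without ND CD11c- ATM replicate 1, 45 without ND ATDC replicate 1), 43 with only the arrays compared, 19 without PA arrays and 10 under the block. Some of the 188 results had no call to lose, because lineage genes were named whatever their result. Fits that leave out arrays hold fewer samples, and the block leaves 9 residual degrees of freedom in place of 15. The cause was not tested further. Depth is not defined for arrays, and signal over background was not used here.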
